A study of Arabidopsis thaliana with 18 samples.

Results

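The response of bro1-1 seedlings to 4 h of abscisic acid (ABA) was examined by comparing the 3 libraries titled bro1-ABA-04Hours with the 3 titled bro1-Mock, which are 6 of the 18 RNA-sequencing libraries of the series. The remaining libraries are bro1-1 after 2 h of ABA and Arabidopsis thaliana Col-0 (WT) at mock and after 2 h and 4 h of ABA, with 3 libraries in each group. All seedlings were 2 weeks old, and treated seedlings received 100 µM ABA while mock seedlings received none. The study describes the 3 samples of a condition as independent biological replicates. The bro1-1 seedlings come from 1 T-DNA line with an insertion in an intron of AtBro1 (AT1G73390), a gene for a Bro1-like domain protein, and both groups of the comparison carry this insertion. A single line cannot separate the insertion from other differences that the line may carry.

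ABA is the hormone that plants make under drought, salt and cold. It binds soluble receptors of the PYR/PYL family, which then hold back the clade A type 2C protein phosphatases (PP2Cs), and SnRK2 kinases released from these phosphatases activate bZIP transcription factors of the ABF and ABI5 group. Those factors bind the ABA-responsive element (ABRE), whose core is ACGTG, in front of genes for protective proteins, and ABA also restrains growth in seedlings.

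The promoters of LEA7, HAI2 and HAI3 are shown because these genes had the most ACGTG matches among the named members of the LEA and PP2C lists. That of IAA29 is shown because it had the largest fall among the expansin, Aux/IAA and type-A response regulator genes listed. Each run covers the 250 bases before the annotated start of the gene, 5′ to 3′ on the strand of the gene, in TAIR10.1 (RefSeq), with matches to ACGTG on either strand in capitals.
LEA7 (chr1:19619474-19619723, plus strand): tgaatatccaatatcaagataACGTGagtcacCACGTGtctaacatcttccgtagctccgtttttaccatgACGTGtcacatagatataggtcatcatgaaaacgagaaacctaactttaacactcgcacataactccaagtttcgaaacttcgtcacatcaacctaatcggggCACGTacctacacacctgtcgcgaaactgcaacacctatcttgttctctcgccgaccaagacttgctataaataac
HAI2 (chr1:2282829-2283078, minus strand): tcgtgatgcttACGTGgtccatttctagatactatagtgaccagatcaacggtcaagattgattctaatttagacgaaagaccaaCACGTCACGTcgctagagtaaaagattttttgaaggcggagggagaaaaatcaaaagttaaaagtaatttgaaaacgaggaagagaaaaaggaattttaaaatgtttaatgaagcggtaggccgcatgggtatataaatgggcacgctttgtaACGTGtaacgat
HAI3 (chr2:12608425-12608674, plus strand): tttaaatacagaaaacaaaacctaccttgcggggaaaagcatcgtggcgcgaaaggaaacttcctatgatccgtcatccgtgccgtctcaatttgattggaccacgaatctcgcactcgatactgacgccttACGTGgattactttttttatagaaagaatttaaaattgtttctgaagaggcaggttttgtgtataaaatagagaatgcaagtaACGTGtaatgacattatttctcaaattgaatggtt
IAA29 (chr4:15583082-15583331, plus strand): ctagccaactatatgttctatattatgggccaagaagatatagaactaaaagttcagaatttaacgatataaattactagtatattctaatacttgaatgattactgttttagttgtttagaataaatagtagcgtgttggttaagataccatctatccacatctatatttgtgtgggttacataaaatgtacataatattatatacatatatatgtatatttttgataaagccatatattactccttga
The window of LEA7 held 5 matches, that of HAI2 4, that of HAI3 2 and that of IAA29 0, where the palindrome CACGTG counts as 2. These are matches of letters and not shown to be binding sites.

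Depth was similar across the comparison, with totals of expected counts from 15568032 to 17307768 per library. One library stood apart. Transcripts of seed storage and oil body proteins, measured with the markers CRA1, CRC, SESA1 and OLEO1, summed to 735 CPM (counts scaled to library size with TMM factors, the unit of every level below) in bro1-1 mock replicate 3, against 0.0579 and 0.3 CPM in mock replicates 1 and 2. After ABA they summed to 0.388 and 0.25 CPM in replicates 1 and 2 and to 15 CPM in replicate 3. In the same mock library 8 genes lay above 20 CPM and over 20 times above both other mock libraries, a rule chosen after its values were seen, and these were CRA1, CRC, CRU2, SESA2, SESA3, SESA4, OLEO1 and the isocitrate lyase gene ICL. The 4 leaf markers (RBCS1A, LHCB1.1, CA1 and GLDP1) summed to 6940 CPM there, against 19000 and 18700 CPM in the other mock libraries. Root markers (COBL9, EXPA7, CASP1, SCR and PIP2;4) summed to 34.2 to 57.6 CPM at mock and 37.2 to 64.7 CPM after ABA, and flower markers (AG, AP1, AP3 and PI) to at most 2.1 CPM. The seed markers did not pass the filter on low counts, and the part of this difference in the results was not tested beyond leaving the library out. Values without single libraries stand beside the genes they change most.

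**Figure D1:**
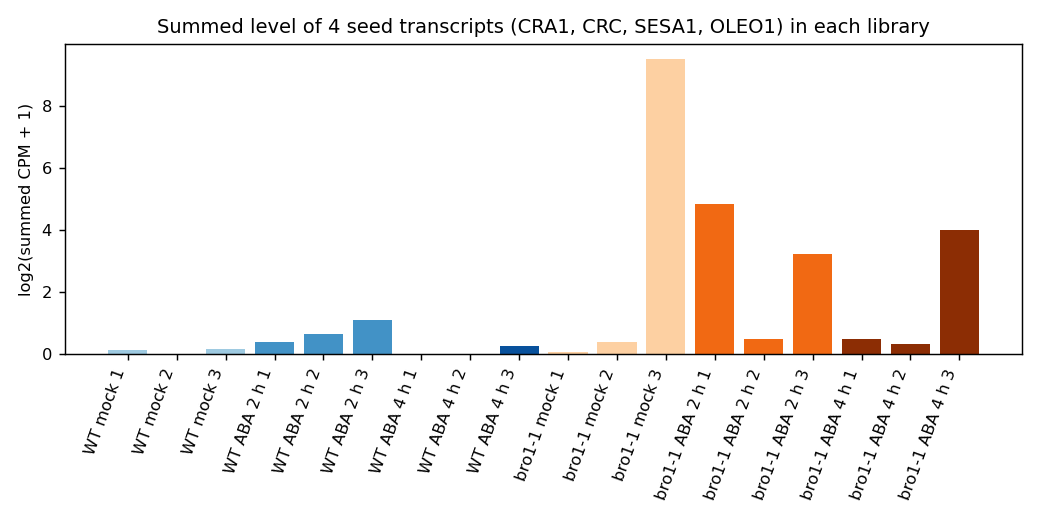
Summed level of CRA1, CRC, SESA1 and OLEO1 in each of the 18 libraries, as log2(summed CPM + 1) on the vertical axis, with 1 bar per library coloured by group. The bar of bro1-1 mock replicate 3 stands at 735 CPM, above every other library, of which the highest holds 27.8 CPM.

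In bro1-1, 3101 genes were higher and 1645 lower after 4 h of ABA than at mock, of the 19958 that passed the filter. Calls rest on the quasi-likelihood test of edgeR and need an adjusted p (Benjamini-Hochberg, all tested genes) under 0.05 with a log2 fold change beyond 1 in either direction. These are 15.5% and 8.24% of the genes tested, which is the background against which each group of genes below is read. Of the genes called, 65.3% were higher. The rise exceeded 8-fold for 769 genes and the fall for 167, and the median log2 fold change of all genes was -0.01. The libraries of the groups did not overlap for 10997 genes, or 55.1%. Without bro1-1 mock replicate 3 the counts were 3310 higher and 1622 lower, and 4285 of the 4746 calls were shared.

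AtBro1 itself was examined first. Its level in bro1-1 was 12.7, 10.7 and 11.3 CPM at mock and 133, 181 and 134 CPM after ABA, a log2 fold change of 3.71 (SE 0.189, edgeR adjusted p = 1.85e-05). The groups lay far apart, so transcripts counted to this gene rose in the insertion line. In WT the corresponding levels were 21.4, 12.6 and 13.4 CPM and 470, 278 and 542 CPM, a log2 fold change of 4.80. The expected count covers the whole gene and does not tell transcript before the insertion from transcript after it, so AtBro1 is only a partial check of the labels. Among the 5 genes with a BRO1 domain, the gene AT1G17940 also rose (log2 4.1, SE 0.27, edgeR adjusted p = 3.7e-05), whereas ALIX, an endosomal sorting protein, had a log2 fold change of -0.05 (adjusted p = 0.788). With all libraries 2 of the 5 rose, and without bro1-1 mock replicate 3 these were 3.

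Genes of at least 10 CPM on average whose groups did not overlap are described first, from both ends of the response. COR15A, which encodes a chloroplast protein that protects membranes in the cold, stood at 2.26, 4.38 and 1.03 CPM at mock and at 3550, 3680 and 3660 CPM after ABA, a log2 fold change of 10.50 (SE 0.618, edgeR adjusted p = 2.6e-05). Its level was nearly equal in the ABA libraries and low in every mock library, and the log2 fold change was 11.09 without bro1-1 mock replicate 2. KIN1, a small cold- and ABA-induced protein gene, went from 3.65, 3.78 and 0.69 CPM to 1680, 1810 and 1500 CPM (log2 9.29). LEA7, a late embryogenesis abundant (LEA) protein gene, stood at 0.521, 0.3 and 4.25 CPM at mock and at 976, 1110 and 972 CPM after ABA. Its mock level was highest in replicate 3, and its log2 fold change was 9.24 with that library and 11.27 without it. The beta-glucosidase gene BGLU24 (log2 9.60, and 10.34 without bro1-1 mock replicate 1) and the cold-regulated gene AT3G03341 (log2 9.08) completed this end among genes with counts at mock.

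Some of the strongest rises started from no more than 3 counts in any mock library, so that only a lower bound can be given. PAP1 (AT1G56650), the MYB regulator of anthocyanin synthesis, had no count in any mock library and reached 30.5, 38.5 and 46.0 CPM, at least 219-fold higher, taking 3 counts per library as the floor. By the same measure the ubiquitin ligase gene DIP2 was at least 690-fold higher, the protein kinase gene AT5G24080 at least 301-fold, the uncharacterized gene AT5G05220 at least 184-fold and the terpene synthase gene TPS03 at least 124-fold. TPS03 varied most among these, with 24.3, 36.1 and 4.72 CPM after ABA, and its bound was 82.6-fold without bro1-1 ABA 4 h replicate 2.

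At the lower end, the methyltransferase-family gene AT1G15125 fell from 94.7, 80.8 and 191 CPM to 0.997, 0.936 and 0.499 CPM, a log2 fold change of -7.21 (SE 0.469, edgeR adjusted p = 3.51e-05). IAA29, an auxin-induced repressor of auxin signalling, stood at 62.0, 61.0 and 31.0 CPM at mock and at 0.222, 0.562 and 0.999 CPM after ABA (log2 -6.39, and -7.01 without bro1-1 ABA 4 h replicate 3). EXPA8, an expansin that loosens cell walls, fell from 22.3, 21.5 and 25.4 CPM to 0.831, 0.125 and 0.222 CPM (log2 -5.80, and -6.96 without bro1-1 ABA 4 h replicate 1). The gibberellin-regulated gene GASA6 (log2 -5.58), the ABA receptor gene PYL6 (log2 -5.51), the phosphatase gene AT5G02760 (log2 -4.83), the beta-galactosidase gene BGAL4 (log2 -4.82), AT1G27020 (log2 -4.61) and the branched-chain amino acid transaminase gene BCAT-2 (log2 -4.53) fell likewise. XTH15, a xyloglucan-modifying cell wall enzyme, stood at 183, 292 and 1210 CPM at mock, where replicate 3 was far above the others, and at no more than 15.6 CPM in any ABA library. Its log2 fold change was -5.52 with all libraries and -4.26 without bro1-1 mock replicate 3.

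**Figure D2:**
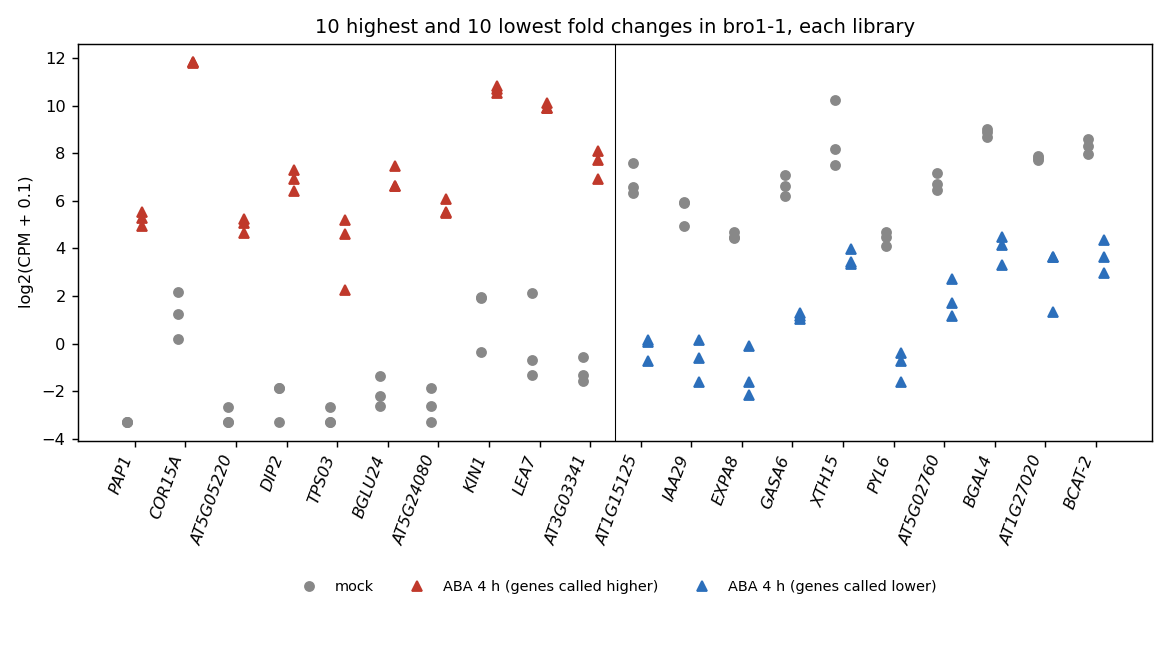
Level of 20 called genes, namely those at either end of the log2 fold change that averaged 10 CPM or more over the 6 libraries, as log2(CPM + 0.1) on the vertical axis, with 1 point per library. Circles are the 3 mock libraries and triangles the 3 ABA libraries, and in none of the 20 genes do the groups overlap, which the choice of genes required.

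Among the most abundant transcripts, ranked by TPM (an estimate of transcript abundance per unit of length), KIN2 rose from 32.1, 27.9 and 12.5 CPM to 3760, 4920 and 3180 CPM (log2 7.38, edgeR adjusted p = 4.17e-05), and the LEA gene AT3G02480 from 4.86, 4.5 and 7.07 CPM to 1200, 1350 and 1460 CPM (log2 7.95, adjusted p = 9.35e-06). KIN1 and KIN2 lie next to each other and, like COR15A and COR15B, are related genes. Their sequences were not compared here, so how fragments of such pairs were divided is uncertain. AT1G13930, annotated as similar to an oleosin, rose with a log2 fold change of 2.42. MT1A, a metallothionein gene, headed this ranking at mean TPM values of 7260 and 13800, but its effective length in the deposited files was only 2.21 to 2.95 bases and its level only 14.1 and 28.2 CPM, so its TPM is not a usable level. It also overlaps AT1G07590, and its log2 fold change of 1.03 (edgeR adjusted p = 0.0123) was 0.82 and not called without bro1-1 mock replicate 3, and 0.78 and not called without bro1-1 ABA 4 h replicate 2.

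Of the 5 genes called lower with the highest TPM, SEN1, a dark-inducible gene, had the lowest log2 fold change. It fell from 1680, 1990 and 2220 CPM to 162, 110 and 26.9 CPM (log2 -4.27, SE 0.623, edgeR adjusted p = 0.00123). AT2G33830, of the dormancy and auxin associated family, fell from 1720, 2510 and 2390 CPM to 374, 284 and 158 CPM (log2 -2.99). AT3G15450 (log2 -2.57), the water channel gene TIP1;2 (log2 -1.95) and GRP7, a clock-regulated RNA-binding protein (log2 -1.48), also fell. In each of these genes the highest ABA library lay below the lowest mock library.

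Within the signalling chain most tested receptor genes fell, all clade A PP2C genes rose, and the kinase and bZIP genes were mixed or partly not called. Of 14 receptor genes 9 passed the filter, 6 fell and none rose, with a median log2 fold change of -2.16. PYL4 stood at 107, 125 and 118 CPM at mock and at 5.76, 5.62 and 9.15 CPM after ABA (log2 -4.07, SE 0.224, edgeR adjusted p = 2.24e-05). PYL5 fell from 92.5, 99.5 and 125 CPM to 8.09, 7.05 and 9.43 CPM (log2 -3.66), and PYL6 from 26.0, 22.2 and 17.1 CPM to 0.665, 0.499 and 0.222 CPM. PYR1, PYL2 and PYL8 also fell. PYL7 stood at 17.4, 22.1 and 15.5 CPM at mock and at 35.7, 30.6 and 22.7 CPM after ABA, a log2 fold change of 0.72 that was not called under the 2-fold threshold.

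All 9 clade A PP2C genes, whose products shut ABA signalling off, rose, with a median log2 fold change of 4.35. HAI1 went from 0.637, 1.08 and 1.49 CPM to 608, 642 and 470 CPM (log2 9.08, SE 0.368, edgeR adjusted p = 9.35e-06). HAI2 stood at 0.0579, 0.12 and 0.747 CPM at mock and at 143, 144 and 109 CPM after ABA. Its log2 fold change was 8.72, and 10.45 without bro1-1 mock replicate 3, in which its mock level was highest. HAI3 rose from at most 0.287 CPM to 38.9, 57.7 and 39.3 CPM (log2 8.32, against 7.72 without bro1-1 mock replicate 1 and 9.44 without replicate 3). ABI1, known from ABA-insensitive mutants, had a log2 fold change of 3.56, with 55.0, 53.4 and 89.5 CPM at mock and 796, 862 and 636 CPM after ABA.

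The 10 SnRK2 kinase genes moved less, with 2 higher, 1 lower and a median of 0.25. SNRK2.7 rose from 0.926, 1.02 and 0.575 CPM to 29.5, 64.8 and 37.0 CPM (log2 5.71), and OST1, the kinase that closes stomata, from 22.7, 22.7 and 22.9 CPM to 63.1, 75.4 and 73.8 CPM (log2 1.66, SE 0.13, edgeR adjusted p = 7.55e-05). SNRK2.5 was at 9.49, 6.42 and 24.5 CPM at mock and at 5.26, 3.24 and 4.16 CPM after ABA, with a log2 fold change of -1.65 (edgeR adjusted p = 0.0282). It was not called without mock replicate 3 (log2 -0.89, adjusted p = 0.0509), nor without bro1-1 ABA 4 h replicate 2 (adjusted p = 0.0873) or 3 (adjusted p = 0.0798). SNRK2.2, with the most counts of the kinases not called, had a log2 fold change of -0.59 (edgeR adjusted p = 0.0209), under the 2-fold threshold.

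Of the 8 bZIP activators 7 passed the filter and 3 rose. ABF3 went from 23.1, 16.1 and 24.8 CPM to 472, 419 and 273 CPM (log2 4.21, edgeR adjusted p = 4.63e-05), ABF2 rose with a log2 fold change of 3.37 and ABI5 with 2.67. ABF1 had a log2 fold change of 0.64 (edgeR adjusted p = 0.0387) and was not called under the 2-fold threshold. All 4 AFP genes, whose products bind ABI5 and hold it back, rose, with a median of 3.14. AFP1 rose most, from 3.01, 3.0 and 6.03 CPM to 287, 324 and 219 CPM (log2 6.12), followed by AFP3 (log2 3.99) and AFP2 (log2 2.29).

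**Figure D3:**
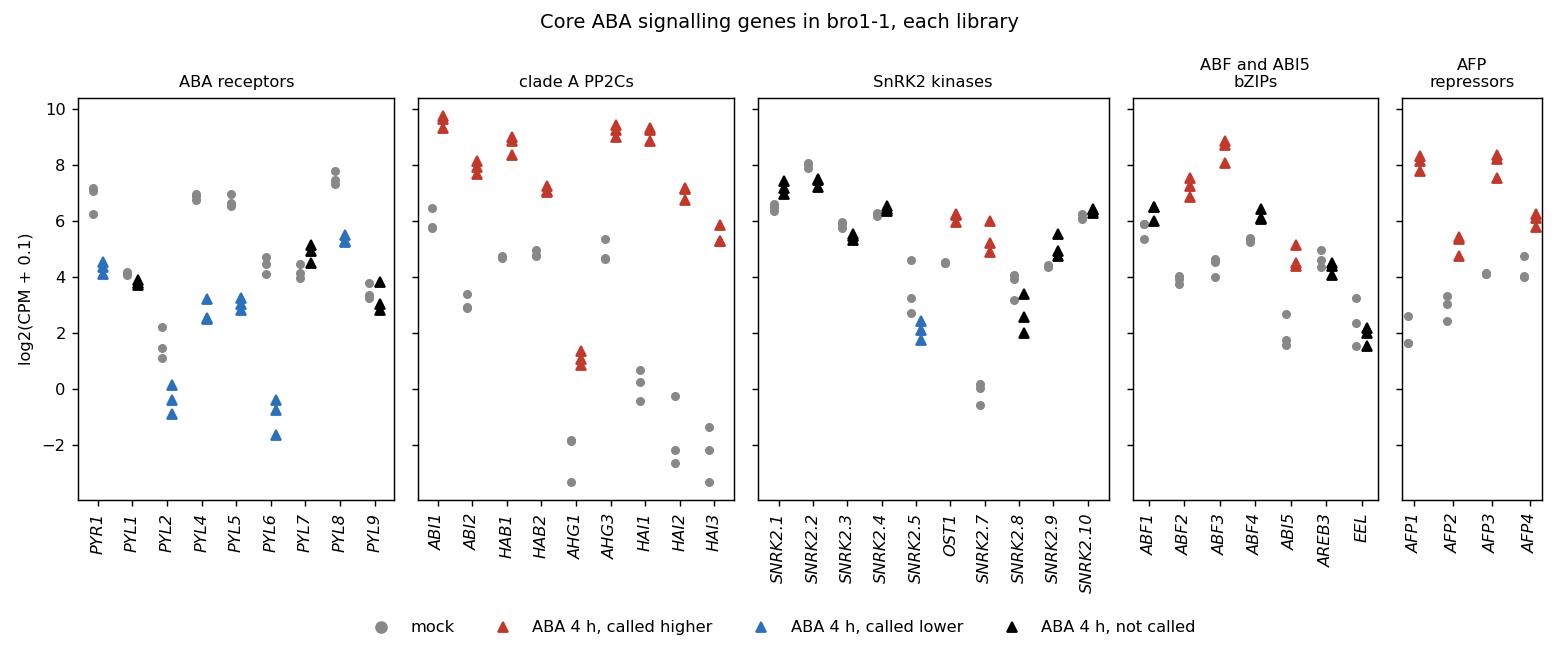
Levels of the core ABA signalling genes that passed the filter, as log2(CPM + 0.1) on the vertical axis, with 1 point per library and 1 panel per list. Grey circles are the mock libraries and triangles the ABA libraries, coloured red where the gene was called higher (all 9 PP2C and all 4 AFP genes), blue where lower (6 of 9 receptor genes) and black where not called.

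Genes for making and for removing ABA rose in the same seedlings. Of 9 synthesis genes 5 passed the filter and 4 rose. NCED3, which encodes the enzyme of the limiting step, stood at 3.47, 2.46 and 1.32 CPM at mock and at 32.7, 25.8 and 43.2 CPM after ABA (log2 3.83, SE 0.354, edgeR adjusted p = 0.000145), and AAO3, of the last step, rose with a log2 fold change of 2.02. ABA1 was at 260, 223 and 44.1 CPM at mock, low in replicate 3, and at 582, 733 and 525 CPM after ABA, a log2 fold change of 1.83 (edgeR adjusted p = 0.0308) that was 1.37 and called without that library. It was not called when bro1-1 mock replicate 2 or any of the 3 ABA libraries was left out, with adjusted p from 0.0551 to 0.0976. ABA2 had a log2 fold change of -0.02 and was not called. All 4 genes of ABA 8′-hydroxylases, which start its breakdown, rose: CYP707A4 (log2 5.83), CYP707A1 (log2 5.65), CYP707A2 (log2 5.51) and CYP707A3 (log2 2.75, and 3.80 without bro1-1 mock replicate 3). CYP707A1 went from 3.47, 3.96 and 3.68 CPM to 155, 233 and 163 CPM. The glucosyltransferase gene UGT71B6 had a log2 fold change of 0.80 (edgeR adjusted p = 0.017) and was not called under the 2-fold threshold.

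Of 18 genes for LEA, dehydrin and cold-regulated proteins, which protect membranes and proteins when water is lost, 17 rose and none fell, with a median log2 fold change of 6.57. The exception was the dehydrin gene XERO1, with 0.405, 0 and 1.61 CPM at mock and 2.66, 3.62 and 2.44 CPM after ABA. Its log2 fold change was 2.11 (edgeR adjusted p = 0.0895) with all libraries, 1.52 without bro1-1 mock replicate 2 and 3.80 (adjusted p = 0.00818) without bro1-1 mock replicate 3, so that all 18 rose without that library. Mock replicate 3 was also the highest of the mock libraries for LEA7, LEA4-5, EM1, EM6 and RD29B, genes that are active in seeds. It was the lowest for COR15A, KIN1, KIN2 and RD29A. Without it the log2 fold change went from 8.09 to 12.17 for EM6, from 8.44 to 10.18 for LEA4-5 and from 8.83 to 10.61 for RD29B. For COR15A, KIN1 and KIN2 it was smaller without that library, at 10.12, 8.83 and 7.07. EM1 (log2 3.67, edgeR adjusted p = 0.0266) had a log2 fold change of 9.85 (adjusted p = 0.000378) without bro1-1 mock replicate 3. EM1 was not called in 4 of the 6 fits that left out 1 library, with adjusted p from 0.0528 to 0.0718.

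Among genes for protective sugars and proline, 5 of 10 rose and 1 fell. P5CS1, of proline synthesis, rose from 62.2, 72.6 and 36.3 CPM to 1710, 1880 and 1240 CPM (log2 4.85, edgeR adjusted p = 5.69e-05), while ProDH1, of proline breakdown, fell from 625, 827 and 867 CPM to 130, 114 and 88.7 CPM (log2 -2.78, adjusted p = 0.000117). The galactinol synthase genes GolS2 (log2 5.02, and 5.62 without bro1-1 mock replicate 3) and GolS4 (log2 3.79, and 4.45) rose. SIP2, of raffinose breakdown, had a log2 fold change of 0.89 (edgeR adjusted p = 0.0352), under the 2-fold threshold. It was called with 1.07 without bro1-1 ABA 4 h replicate 3. Of 6 starch breakdown genes 5 rose. The beta-amylase gene BAM1 went from 42.6, 38.5 and 40.4 CPM to 387, 534 and 423 CPM (log2 3.49), BAM5 was at least 74.6-fold higher, and the alpha-amylase gene AMY1 rose with a log2 fold change of 3.48, or 4.21 without bro1-1 mock replicate 1. AMY3 had a log2 fold change of 0.42 and was not called.

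Of 16 transcription factor genes linked to ABA, 14 rose and 2 fell, with a median of 3.24. MYB102 (log2 7.01, and 7.96 without bro1-1 mock replicate 2), the NAC factor gene ANAC019 (log2 6.16) and MYB74 (log2 5.44) rose most. ANAC019 was at 5.9, 3.42 and 6.15 CPM at mock and at 379, 440 and 273 CPM after ABA. MYB60, a guard cell factor, fell from 23.1, 22.0 and 14.1 CPM to 3.6, 5.55 and 2.27 CPM (log2 -2.35, SE 0.341, edgeR adjusted p = 0.0012). The guard cell markers as a list summed to 201 to 364 CPM at mock and to 71.4 to 95.2 CPM after ABA, with GC1 and MYB60 lower and FAMA and KAT1 not called, while 3 of the 4 were lower without bro1-1 mock replicate 3. In whole seedlings, fewer cells of a type and less RNA per cell cannot be told apart. Of 8 genes for guard cell channels and pumps only the potassium channel gene GORK was called (log2 1.76), and AHA1 had a log2 fold change of 0.23.

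Senescence and chlorophyll breakdown genes were mixed, with 6 of 10 tested higher and 2 lower, and 7 higher without bro1-1 mock replicate 3. SWEET15, a sugar exporter known as SAG29, rose from 2.2, 3.3 and 2.36 CPM to 398, 461 and 571 CPM (log2 7.53, SE 0.283, edgeR adjusted p = 9.35e-06), and SAG13 rose with a log2 fold change of 3.63, or 4.38 without bro1-1 mock replicate 1. DIN10, a dark-inducible gene, fell from 2060, 2410 and 2150 CPM to 273, 174 and 119 CPM (log2 -3.52). PPH, which removes the phytol chain of chlorophyll, had a log2 fold change of 0.98 (adjusted p = 0.0019), just under the fold threshold. It was called without bro1-1 mock replicate 3 (log2 1.03) and without bro1-1 ABA 4 h replicate 1 (log2 1.01) or 3 (log2 1.05).

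Jasmonate, a wound hormone made from plastid lipids, had most of its genes higher. Of 10 synthesis genes 8 rose, with a median of 1.92. LOX2 stood at 86.5, 38.8 and 16.5 CPM at mock and at 1170, 1420 and 1330 CPM after ABA (log2 4.81, SE 0.588, edgeR adjusted p = 0.000524, and log2 5.54 without bro1-1 mock replicate 1), LOX3 rose with a log2 fold change of 3.63 and AOC2 with 2.74. AOC4 had a log2 fold change of 0.42 and was not called. Among 14 tested JAZ repressor and output genes 11 rose. The vegetative storage protein gene VSP2 went from 37.9, 24.1 and 12.3 CPM to 970, 912 and 1050 CPM (log2 5.33), VSP1 rose with 3.67 and JAZ1 with 3.23. ABA replicate 3 stood out for JAZ6, with 43.5, 34.3 and 117 CPM after ABA against 44.1, 36.7 and 39.9 CPM at mock, a log2 fold change of 0.71 that was not called and was -0.017 without that library. Without bro1-1 ABA 4 h replicate 3, OPR3 (log2 0.735), JAR1 (log2 0.873), JAZ2 (log2 0.938) and JAZ3 (log2 0.978) fell under the fold threshold. AOC3 (edgeR adjusted p = 0.114) and JAZ7 (adjusted p = 0.0759) were not called there either, while JAZ5, JAZ9 and JAZ10 were. OPR3, AOC3 and JAZ7 were also not called without bro1-1 mock replicate 1 or 2. Without bro1-1 mock replicate 3 the counts were 8 of 10 and 11 of 15, and without both replicate 3 libraries 6 of 10 and 8 of 14.

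Of 19 immune genes 3 were higher and 1 lower, with a median of -0.14, which is close to the 15.5% and 8.24% of all genes and so sets nothing apart. Without bro1-1 mock replicate 3 there were 4 higher and 1 lower. FRK1, a receptor kinase gene induced by bacterial flagellin, rose from 3.99, 1.5 and 1.72 CPM to 8.81, 12.7 and 10.9 CPM (log2 2.18), and WRKY53 from 4.69, 1.86 and 5.63 CPM to 16.2, 12.2 and 10.3 CPM (log2 1.69, edgeR adjusted p = 0.0102). FLS2, the flagellin receptor gene, fell from 52.7, 37.7 and 113 CPM to 7.25, 5.87 and 7.93 CPM (log2 -3.25, and -2.66 without bro1-1 mock replicate 3). WRKY33 had a log2 fold change of 1.16 (adjusted p = 0.122), which was 1.79 (adjusted p = 0.0212) without bro1-1 mock replicate 3 and 0.44 without bro1-1 ABA 4 h replicate 3. Of 9 genes of salicylate synthesis and signalling, edgeR and DESeq2 each called 0, and 1 had an unadjusted edgeR p under 0.05.

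Of 18 tested anthocyanin and flavonoid genes 14 rose, with a median of 4.99, and all 7 genes of the late enzymes were among them. Without bro1-1 mock replicate 3 the count was 15. PAP2, a close relative of PAP1, was also without a count at mock and reached 20.8, 18.3 and 17.6 CPM, at least 108-fold higher. GSTF12, needed to move anthocyanin into the vacuole, was at least 122-fold higher. TTG1, a scaffold of the regulator complex, had a log2 fold change of -0.41 and was not called. PAP1, PAP2, MYB113 and MYB114 are similar in sequence, and how fragments were divided among them is uncertain. Of 12 tested wax and lipid transfer genes, whose products build the cuticle, 11 rose. LTP3 went from 4.51, 4.38 and 1.03 CPM to 360, 784 and 749 CPM (log2 7.60, edgeR adjusted p = 9.23e-05), LTP4 rose with a log2 fold change of 7.36, and KCS2, which lengthens fatty acids, with 6.49. CER4 had a log2 fold change of 0.73 and was not called.

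**Figure D4:**
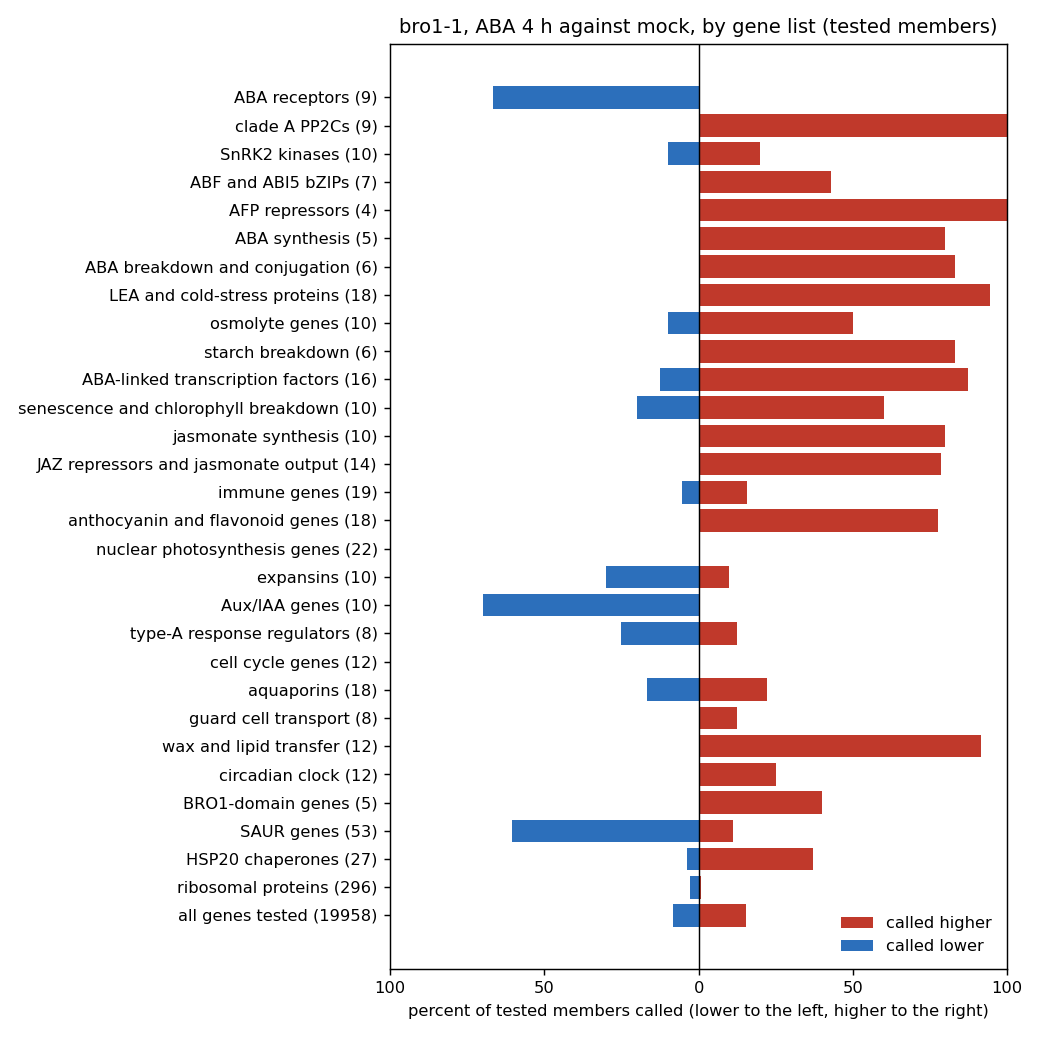
Percent of the tested members of each gene list called lower (blue, to the left) and higher (red, to the right) in bro1-1 after 4 h of ABA, with the number of tested members in brackets and all genes tested in the last bar. The PP2C and AFP lists reach 100% higher, the receptor, Aux/IAA and SAUR lists lean to lower, and the last bar shows 15.5% higher and 8.24% lower.

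Most tested members of the auxin-responsive SAUR and Aux/IAA lists fell, while the alpha-expansins were mixed, with a median of -0.46. Of 53 tested SAUR genes, small auxin-induced regulators of cell expansion, 32 fell and 6 rose, with a median of -2.05, and without bro1-1 mock replicate 3 these were 36 and 6 of 57. AT2G37030 had 2.37, 4.32 and 11.5 CPM at mock and no count in any ABA library, at least 35.0-fold lower, or 19.3-fold without bro1-1 mock replicate 3. Of 10 tested Aux/IAA genes 7 fell and none rose, with a median of -1.97, and without bro1-1 mock replicate 3 there were 9 lower and 1 higher of 11. IAA19 fell from 40.7, 37.3 and 17.9 CPM to 1.77, 2.18 and 4.27 CPM (log2 -3.51, SE 0.42, edgeR adjusted p = 0.000471), and IAA7 from 249, 262 and 459 CPM to 40.8, 70.5 and 55.3 CPM (log2 -2.52). IAA17 had a log2 fold change of 0.99, just under the fold threshold, and was called without bro1-1 ABA 4 h replicate 1 (log2 1.25) and, at the threshold, without bro1-1 mock replicate 3. Among 10 tested alpha-expansin genes 3 fell and 1 rose. EXPA1 (log2 -2.54) fell, EXPA16 rose from 11.6, 12.1 and 8.79 CPM to 123, 231 and 132 CPM (log2 3.92), and EXPA4 had a log2 fold change of 0.03.

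Type-A response regulators, which are induced by cytokinin, had 2 of 8 tested members lower and 1 higher, and 4 of 9 lower and 0 higher without bro1-1 mock replicate 3. ARR7 (log2 -1.56) and ARR5 (log2 -1.49) fell. ARR16 was called higher (log2 1.51, edgeR adjusted p = 0.037) and was not called without bro1-1 mock replicate 3 (log2 1.17, adjusted p = 0.0624), bro1-1 mock replicate 1 (adjusted p = 0.0973), or bro1-1 ABA 4 h replicate 1 (adjusted p = 0.0751) or 2 (adjusted p = 0.153), while ARR4 (log2 -0.91, adjusted p = 0.0606) was called lower without it (log2 -1.23, adjusted p = 0.00107). Of 12 cell cycle genes edgeR and DESeq2 each called 0, with 3 at an unadjusted edgeR p under 0.05. The cytokinesis gene KNOLLE had a log2 fold change of 0.83 (edgeR adjusted p = 0.0424), under the 2-fold threshold. It was called with 1.01 without bro1-1 ABA 4 h replicate 2. Of 18 aquaporin genes, for water channels, 4 rose and 3 fell, or 22.2% and 16.7% beside 15.5% and 8.24% of all genes. TIP2;1 of the vacuole membrane fell from 875, 1220 and 1700 CPM to 205, 179 and 184 CPM (log2 -2.72), PIP1;4 (log2 2.28) and PIP2;5 (log2 2.11) of the plasma membrane rose, and PIP1;2 had a log2 fold change of -0.36.

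Of 22 nuclear genes for antenna proteins and the Rubisco small subunit edgeR called 0, with 6 at an unadjusted p under 0.05 and a median log2 fold change of -0.69. LHCB1.3, with the most counts of these genes, was at 17300, 18400 and 18300 CPM at mock and at 10200, 10400 and 6550 CPM after ABA (log2 -0.97, adjusted p = 0.0886). Here the groups did not overlap, although the test did not pass. DESeq2 called 2 of them lower. Several antenna genes were low in bro1-1 mock replicate 3, as LHCB1.1 with 4470, 4000 and 628 CPM at mock, and without that library 7 of 22 were lower, against 2 of 22 without both replicate 3 libraries. The LHCB1 genes are near-identical, so their single values are uncertain.

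Of 12 circadian clock genes 3 rose, or 25.0% beside 15.5% of all genes. CCA1, a morning gene, was at 11.7, 13.7 and 1.44 CPM at mock and at 29.8, 51.7 and 63.7 CPM after ABA (log2 2.46, SE 0.651, edgeR adjusted p = 0.0182). PRR9 (log2 2.60) and ELF4 (log2 2.33) rose as well, and PRR7 had a log2 fold change of -0.60. Without bro1-1 mock replicate 3, in which CCA1 and PRR9 were lowest, CCA1 had a log2 fold change of 1.95 and PRR9 of 2.09, and both were still called. CCA1 was not called without bro1-1 ABA 4 h replicate 2 (adjusted p = 0.0582) or 3 (adjusted p = 0.0555), and PRR9 had a log2 fold change of 3.37 without bro1-1 mock replicate 1. At 2 h of ABA CCA1 averaged 142 CPM in bro1-1, against 8.96 CPM at mock and 48.4 CPM at 4 h. The hour of harvest of mock and treated seedlings is not given in the sources used here. The same mock group of each genotype serves both ABA times. Effects of ABA and of elapsed time or time of day can therefore not be told apart, for these genes or for others.

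ABRE-like letters were more common in front of the genes that rose. In the window from 250 bases before to 50 after the annotated start, ACGTG on either strand was found for 43.2% of the 3100 genes called higher with a promoter, for 21.8% of the 1645 called lower, for 28.3% of 19909 tested and for 24.6% of all 37897 promoters. The palindromic G-box CACGTG, which contains ACGTG, was found for 16.6%, 5.84%, 9.12% and 6.46% of the same sets. Within the 250 bases before the start, 12.9% of the 15092 genes with no ACGTG were called higher, 22.4% of the 4091 with 1 or 2 matches and 32.5% of the 726 with 3 or more. For genes called lower the corresponding shares were 8.91%, 6.7% and 3.72%, so the share rose with the number of matches in one direction and fell in the other. The cold-linked CCGAC was found for 16.8%, 14.5%, 16.2% and 15.3% of the sets, and the evening element AAAATATCT for 3.94%, 2.8%, 3.05% and 2.49%. TGGGCC and AAACCCTA, motifs of growth and ribosomal genes, were less frequent among genes called higher (10.3% and 2.55%) and lower (14.3% and 4.01%) than among all tested (18.7% and 5.41%). These shares are descriptions without a test.

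The same comparison in WT, made on other libraries, gave 2690 genes higher and 1473 lower of 19880, or 13.5% and 7.41%. The lower count rested in part on single libraries, with 870 without WT ABA 4 h replicate 1 and 923 without replicate 3. Called in the same direction in both genotypes were 3208 genes, which are 68.9% of the 4655 called in bro1-1 and tested in WT and 78.0% of the 4115 called in WT and tested in bro1-1. Called in opposite directions were 0. Of 3034 genes called higher in bro1-1, 2976 had a log2 fold change above 0 in WT. The median log2 fold change was 4.35 in bro1-1 and 4.86 in WT for the PP2C list, -2.16 and -1.79 for the receptor list, and 6.57 and 7.74 for the LEA list.

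Whether the response differed between the genotypes was tested by their interaction with ABA, and edgeR's quasi-likelihood test called 0 of 20480 genes, or 0%. At an unadjusted p under 0.05 lay 1218 genes, or 5.95%, and DESeq2 called 6. The number under 0.05 rested in part on single libraries. It was 2056 of 20721 without WT mock replicate 2 and 2169 of 20724 without WT ABA 4 h replicate 2. Without WT ABA 4 h replicate 1 it was 747 of 20740. The smallest p belonged to AT1G14250, an apyrase-family gene, with a log2 fold change of 6.03 (SE 0.393) in bro1-1 and 2.46 (SE 0.518) in WT. WRKY53 followed with 1.69 and 4.41, and CYP710A2, of sterol synthesis, with 1.15 (not called in bro1-1 without mock replicate 2, where it was 0.90, or ABA 4 h replicate 3) and -0.36, each at an edgeR adjusted p of 0.83. In the jasmonate synthesis list 8 of 10 genes rose in bro1-1 and 4 in WT, and the medians were 1.92 and 0.70. Without both bro1-1 replicate 3 libraries 6 of 10 rose in bro1-1, with a median of 1.46. In this list 6 of 10 had an unadjusted interaction p under 0.05, beside the 5.95% of all genes. In the anthocyanin and flavonoid list 7 of 18 had an unadjusted interaction p under 0.05, with medians of 4.99 and 3.12. In the immune list 3 rose in bro1-1 and 8 in WT, with medians of -0.14 and 1.54 and 3 of 19 under 0.05. No adjusted p in these lists lay below 0.83, so none of these differences passed the test. For AtBro1 the log2 fold change was lower in bro1-1 than in WT by an interaction log2 of -1.04 (SE 0.376, edgeR adjusted p = 0.83).

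**Figure D5:**
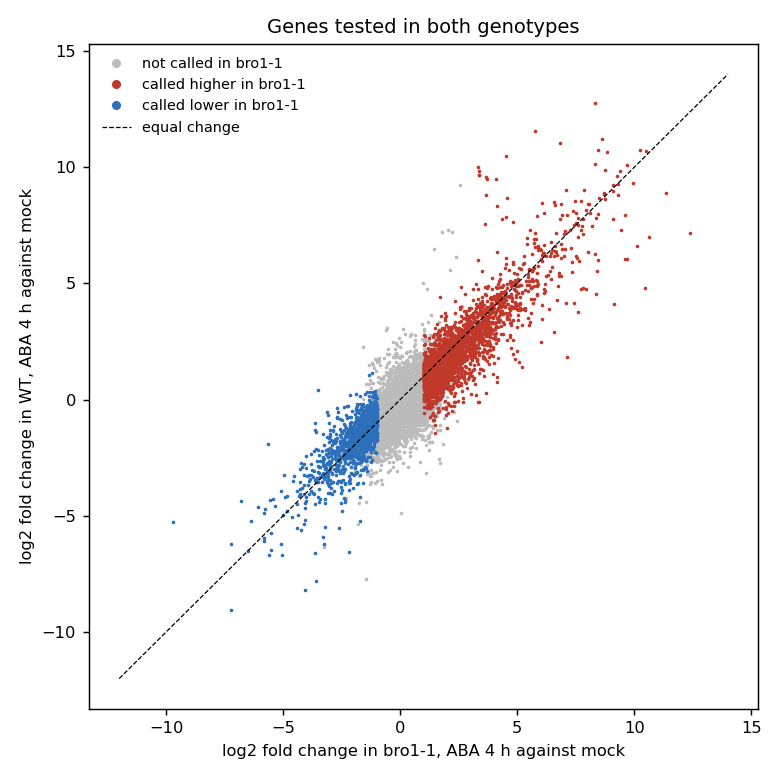
Log2 fold change after 4 h of ABA in bro1-1 (horizontal axis) and WT (vertical axis) for the 19666 genes tested in both, with 1 point per gene, coloured by the call in bro1-1, and a dashed line of equal change. No gene called in bro1-1 was called in the other direction in WT. Values far out on either axis include genes at the floor at mock, whose fitted change is not a bound.

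The level at 4 h was also set against that at 2 h in bro1-1, a comparison that shares the 4 h libraries with the main one. With edgeR, 111 of 19815 genes were higher at 4 h and 100 lower, or 0.56% and 0.505%, while 3748 genes, or 18.9%, had an unadjusted p under 0.05, and DESeq2 called 414 higher and 276 lower. DFR, a late anthocyanin enzyme gene, stood at 0.994, 0.529 and 1.4 CPM at 2 h and at 32.2, 14.2 and 34.5 CPM at 4 h (log2 4.77, SE 0.453, edgeR adjusted p = 0.0145). LDOX, of the next step, rose from 1.74, 1.12 and 2.19 CPM to 31.4, 14.6 and 39.9 CPM (log2 4.08), and the heat shock protein gene ATHSP22.0 from 3.73, 1.19 and 0.547 CPM to 18.4, 30.1 and 51.2 CPM (log2 4.19, and 5.29 without bro1-1 ABA 2 h replicate 1). At mock DFR stood at no more than 0.42 CPM and LDOX at no more than 0.48 CPM, whereas PAP1 had a mean of 41.5 CPM at 2 h and 38.4 CPM at 4 h. The light-linked B-box genes COL2 (log2 -2.61) and BBX31 (log2 -2.74) and the cell wall gene XTH15 (log2 -2.88, and -2.18 without bro1-1 ABA 2 h replicate 1) fell. Over the 6 fits that left out 1 library, COL2 was called in 4, DFR and LDOX in 3, BBX31 in 2 and ATHSP22.0 and XTH15 in 1. These counts rested on single libraries, since 0 genes were called in either direction without bro1-1 ABA 2 h replicate 2 or 3, and without bro1-1 ABA 4 h replicate 1 there were 2 higher and 1 lower. Without bro1-1 ABA 4 h replicate 2 there were 37 and 30, without replicate 3 of that group 54 and 25, and without bro1-1 ABA 2 h replicate 1 there were 247 and 108.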

How the data were processed

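Total RNA of 2-week-old seedlings was sequenced by the study. The authors trimmed reads with BBDUK2, removed ribosomal reads with Bowtie 2 (version 2.3.5.1 in the processing notes) and quantified genes with RSEM 1.2.30. The build, annotation and strand setting are not given in the sources used here. Per the labels and file headers, the authors deposited expected counts of RSEM, not normalized between libraries, and TPM, scaled within each library, which was used only to rank abundant genes. Of 21178 genes with 1 transcript, 99.3% had the transcript length of TAIR10.1, from which positions and promoters were taken.

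Expected counts were rounded and tested with edgeR 4.0.16 in R 4.3.3 (filterByExpr, TMM, quasi-likelihood test, Benjamini-Hochberg adjustment over all genes tested) on the 6 libraries compared, or on 12 for the interaction. The standard error is the log2 fold change divided by the square root of F. CPM values use TMM factors over 18 libraries. The test was run on simulated data first.

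The members and gene lists were chosen with earlier results of these data known. Named are, among called genes that averaged 10 CPM or more and whose groups do not overlap, the 10 at each end of the fold change, the 5 higher and 5 lower called genes of highest TPM, per list the 3 largest called members, the largest called member against the rest and the uncalled member of highest CPM, 3 genes in each direction for 4 h against 2 h, the 3 smallest interaction p and AtBro1. Other members named in the text were chosen after their values were seen. Alternatives were DESeq2 1.42.0, relative log expression (RLE) factors, no filter, no fold threshold, glmTreat, a replicate block, all 18 libraries, each library left out and, chosen after seeing the data, both replicate 3 libraries left out. The strand setting is unknown, so reads of overlapping genes cannot be told apart, as for KCS2 with AT1G04247, BGAL4 with AT5G56880, XTH15 with AT4G14120, COL2 with AT3G02370 and, over 29 bases, AtBro1 with AT1G73380.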

Additional observations from a re-analysis of the deposited data

Results flagged for a closer look

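For 2 of the named genes every library after 4 h of ABA lay above every mock library in bro1-1 and below every mock library in WT. The share of all genes with this pattern was not counted, and in bro1-1 alone the groups did not overlap for 55.1%. CYP710A2 was named for its small interaction p, so a difference between the genotypes was built into its choice. CYP710A2, of sterol synthesis, stood at 9.38, 6.06 and 11.9 CPM at mock and at 17.2, 18.5 and 24.2 CPM after ABA in bro1-1 (log2 1.15), and at 12.8, 9.44 and 11.9 CPM and 8.43, 9.09 and 8.29 CPM in WT (log2 -0.36). AOC4, an allene oxide cyclase gene of jasmonate synthesis, stood at 22.6, 25.8 and 30.2 CPM and 32.7, 34.9 and 35.6 CPM in bro1-1 (log2 0.42), and at 22.2, 27.7 and 23.8 CPM and 18, 22.1 and 20.7 CPM in WT (log2 -0.23). CYP710A2 was called in bro1-1 and not in WT, and AOC4 in neither (edgeR adjusted p = 0.0573 in bro1-1 and 0.323 in WT). Neither difference passed edgeR's interaction test (adjusted p = 0.83 for each).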

How the results depend on the processing

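For ABA 4 h against mock in bro1-1 the counts of genes higher and lower stayed within 1.5 times of the reported ones under most alternatives. The exceptions were glmTreat, with 1797 and 620, and no fold threshold, with 3657 lower. DESeq2 gave 3352 and 1773, RLE factors 3097 and 1647, and leaving out each library 2721 to 3310 and 1483 to 1733. Without both replicate 3 libraries, a setting chosen after seeing the data, there were 3071 and 1515. With the replicate block there were 3075 and 1597, where the numbers do not pair the libraries, since deviations of same-numbered mock and ABA libraries correlated over genes at -0.126, 0.15 and 0.293. For 4 h against 2 h the counts were 414 and 276 with DESeq2, 170 higher without the filter, 1 and 0 with glmTreat, 2 and 0 with the replicate block, and 0 to 247 and 0 to 108 leaving out each library. In WT they were 1390 and 433 with glmTreat and 2489 lower without the fold threshold, and leaving out each library gave 2169 to 2931 and 870 to 1856. DESeq2 called 6 genes in the interaction, where leaving out each library gave 0 to 2. In the 250 bases before the start alone, 37.1% of genes called higher held ACGTG. Genes that were not called changed sign when libraries were left out: leaving out each library gave log2 fold changes of -0.128 to 0.062 for ABA2, -0.017 to 0.98 for JAZ6 and -0.289 to 0.268 for EXPA4, and JAZ6 had -0.019 without both replicate 3 libraries. The cause was not tested. Across the named genes and alternatives, 1564 values kept their call and direction, 26 gained a call, 27 lost it and 7 reversed. Depth leaves genes under about 3 counts per library without a usable fold change.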

Other observations

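The annotation words HSP20-like chaperones cover small heat shock proteins, which hold unfolded proteins, and other genes such as BOB1 and SLT1. Of 27 such tested genes, 10 were higher and 1 lower in bro1-1 after 4 h of ABA, beside 15.5% and 8.24% of all genes. ATHSP22.0 stood at 0.0579, 0.18 and 0.402 CPM at mock and at 18.4, 30.1 and 51.2 CPM after ABA (log2 7.25, edgeR adjusted p = 8.7e-05, and log2 8.07 without bro1-1 mock replicate 3). AT1G07400 reached 24.0, 21.4 and 89.0 CPM, highest in replicate 3. AT4G21870 fell with a log2 fold change of -3.94. Of 296 tested genes annotated as ribosomal proteins, some of organelles, 2 were higher and 8 lower, with a median log2 fold change of -0.43. These are 0.676% and 2.7%, beside 15.5% and 8.24% of all genes. An unadjusted edgeR p under 0.05 was found for 160 of the 296, beside 9897 of all 19958 genes. The groups did not overlap for 205 of the 296, beside 55.1% of all genes, so many changes lay under the 2-fold threshold.

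Seed storage and oil body transcripts were also counted in other libraries. The sum of CRA1, CRC, SESA1 and OLEO1 was 27.8, 0.397 and 8.32 CPM in bro1-1 after 2 h of ABA, and at most 1.13 CPM in any WT library. WT mock replicate 2 held 328 CPM of LHCB1.1, against 3680 and 4520 CPM in the other WT mock libraries, and had no count of these seed transcripts.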
